A study of Mus musculus with 7 samples.

Results

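The genes that write, copy and remove DNA methylation were examined for open chromatin in mouse epiblast-like cells (EpiLCs) with and without Smad2/3. The genes were Dnmt1, Uhrf1, Dnmt3a, Dnmt3b, Dnmt3l, Tet1, Tet2 and Tet3. Of the 75880 accessible sites in the deposited table, those whose midpoint lay within 50 kb of a curated RefSeq transcription start site (TSS) of one of the 8 genes were taken, which gave 72 sites. Each of the 8 genes had at least 3 sites, and each site belonged to 1 of them. Positions are on GRCm38 (mm10), and the sequences printed below were read from the RefSeq genome of that build.

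Open chromatin was assayed with ATAC-seq, in which the Tn5 transposase inserts sequencing adapters into open DNA. EpiLCs model the primed epiblast and were obtained from naive embryonic stem cells (ESCs) of strain 129/Sv//Ev after 48 h, called day 2, in 12 ng/ml Fgf2 and 20 ng/ml activin A, the ligand whose signal Smad2 and Smad3 carry. The 3 WT samples were differentiations of clone CCE. The 3 Smad2/3 DKO samples were differentiations of clone KT15.1F6, which lacks Smad2 and carries a deletion of the region around Smad3 exon 1. Each differentiation used 75000 cells in 2 technical replicates, and 1 further library was made from 100 ng of WT genomic DNA treated with Tn5. There was thus 1 clone per genotype, so a difference of the genotype and one of the clone cannot be told apart, and activin A was present in both groups. All cells of a dish were measured together, so a site open in fewer cells and a site less open in each cell cannot be told apart either.

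For every site the authors deposited 1 concentration per genotype, the log2 of the mean normalized reads over the 3 libraries. These are the authors' means and no value per library was used, so no spread between differentiations, no depth per library and no test is given. Differences are DKO minus WT concentration on the log2 scale, and a site was counted as lower or higher where it differed by more than 1.5-fold, which is 0.585 on that scale. The median difference over all 75880 sites was -0.08, with quartiles of -0.39 and 0.20. The targeted Smad3 promoter site, 221 bp from its TSS, had a concentration of 5.42 in WT and -0.10 in DKO, the lowest DKO value in the table. Since the region around exon 1 was deleted, removed DNA and closed chromatin cannot be told apart at this site. The Smad2 promoter site was at 8.35 and 8.28, and an open promoter does not check the Smad2 allele. Epiblast genes had a site within 1 kb of a TSS for 7 of 8 markers, at 6.25 to 9.03 in WT and with differences of 0.01 to 0.38, Otx2 being the one without such a site. Promoters of naive ESC genes (6 of 6), trophoblast genes (5 of 5) and endoderm genes (5 of 5) were listed too. In that order they were at 4.57 to 7.83, 4.55 to 8.69 and 3.42 to 9.13 in WT, overlapping the epiblast range. These promoters differed by -0.23 to 0.28, -0.69 to 0.02 and -0.39 to 0.13. Those of mesoderm genes (2 of 3, at 3.89 to 4.24 in WT) differed by 0.35 to 0.36 and those of neural genes (2 of 2, at 5.91 to 6.54) by -0.19 to 0.24. An open promoter does not mark a gene as expressed.

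In mammals, a methyl group on the cytosine of CpG dinucleotides is copied after replication by Dnmt1, which Uhrf1 brings to hemimethylated DNA. New methylation is laid down by Dnmt3a and Dnmt3b, aided by Dnmt3l, a relative without catalytic activity. The Tet1, Tet2 and Tet3 dioxygenases oxidise 5-methylcytosine and so start its removal. The passage from naive to primed pluripotency is known for a genome-wide gain of methylation with high de novo methyltransferase expression.

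The 72 sites differed in both directions between Smad2/3 DKO and WT EpiLCs, with little net difference. The median difference was 0.02, with quartiles of -0.18 and 0.30 and a range of -1.0 to 1.51. Of these sites, 5 (6.94%) were lower past 1.5-fold, beside 16.0% of all listed sites, and 9 (12.5%) were higher, beside 8.51% of all listed sites. The remaining 58 did not pass, and 38 of the 72 lay above 0 and 34 below. The split of 9 higher to 5 lower became 12 to 4 when differences were centred on the median of all sites, 13 to 3 when centred on sites of like concentration, 8 to 4 when centred on the other sites within 1 Mb, and 6 to 0 when 8 normalized reads were added to both genotypes. Over all sites the corresponding split was 6457 higher to 12109 lower as deposited and 7987 to 10095 when centred on their median. It was 8601 to 9442 after centring on sites of like concentration, and 3080 to 7100 with the 8 reads added. No such split was worked out for the centring within 1 Mb. The Tet genes had 5 higher (26.3%) and 2 lower (10.5%) among 19 sites, with a median of 0.05, and the methyltransferases with Uhrf1 had 4 higher (7.55%) and 3 lower (5.66%) among 53, with a median of -0.01.

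Low concentrations varied most. In the lowest of 20 bins of mean concentration, 41.4% of all sites were lower and 32.5% higher past 1.5-fold, against 0.896% and 0.369% in the highest bin. Among the 66 sites of the 8 genes that reached a concentration of 4, or 16 normalized reads, in the higher genotype, 2 were lower, beside 14.7% of all such sites, and 8 were higher, beside 6.87%. Of the 6 weaker sites, 3 were lower, beside 23.7% of all sites under 4 in both genotypes, and 1 was higher, beside 18.6%. For this reason each site past 1.5-fold is given below with the share of like sites, that is, sites in the same bin of mean concentration, that differed further in the same direction.

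**Figure D1:**
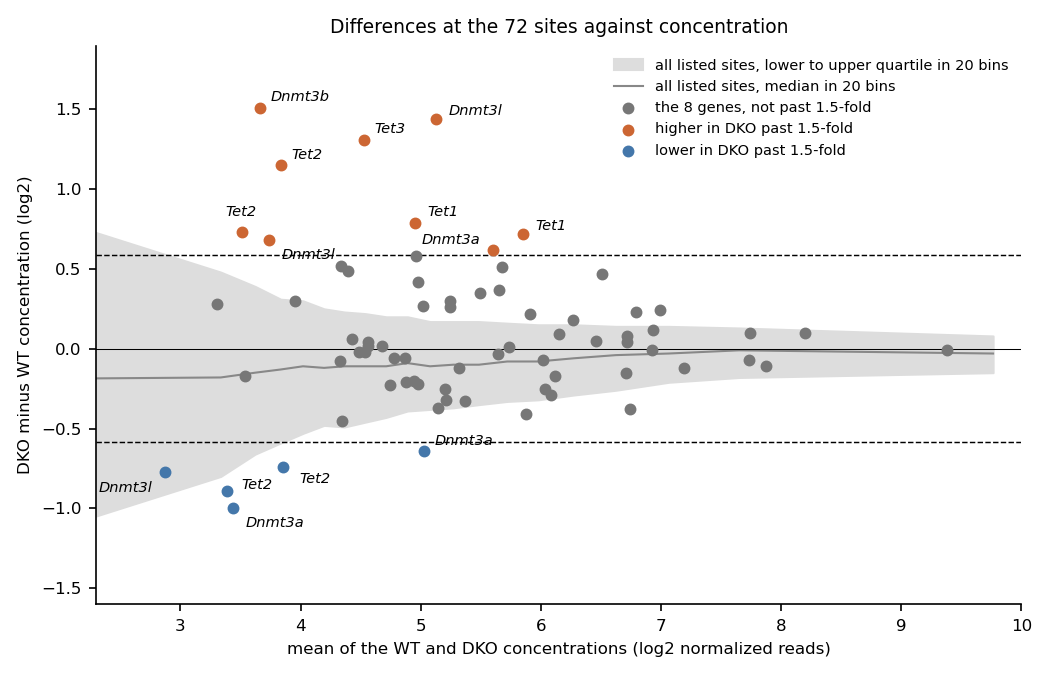
Difference (DKO minus WT concentration, log2) against the mean of both concentrations (log2 normalized reads) for the 72 sites of the 8 genes. The grey band spans the quartiles of all listed sites in 20 bins, and dashed lines mark 1.5-fold. The 9 higher sites (orange) lie above the band, and the 5 lower sites (blue) lie under it except that of Dnmt3l, which lies within it.

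Of the 72 sites, 11 were promoter sites, within 1 kb of a TSS of their own gene, and 10 of the 11 were within 1.5-fold. One of these 10, at Dnmt3l, reached 0.59 and so passed 1.5-fold when differences were centred on all sites or on sites of like concentration. None was lower, beside 4.17% of all 15001 sites within 1 kb of a TSS, and 1 was higher, beside 3.69%, which was the upstream promoter of Tet3. The median difference over the 11 was 0.09, beside 0.01 over all promoter sites. Read per 100 bp of site, the WT level was highest at Tet2, with 20.6 normalized reads, and at the downstream TSS of Tet3, with 19.7, followed by the downstream TSS of Dnmt3a (19.1) and the upstream TSS of Uhrf1 (18.9). Dnmt1 stood at 13.5, near the median of 13.3 for all promoter sites, and the downstream Uhrf1 TSS (11.1), the upstream Dnmt3a TSS (10.0), Dnmt3b (9.72), Tet1 (9.43) and Dnmt3l (6.12) were under it. The lowest of all was the upstream TSS of Tet3, with 2.81 in WT and 6.97 in DKO. Without a spread between libraries, neighbours in this order cannot be told apart.

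**Figure D2:**
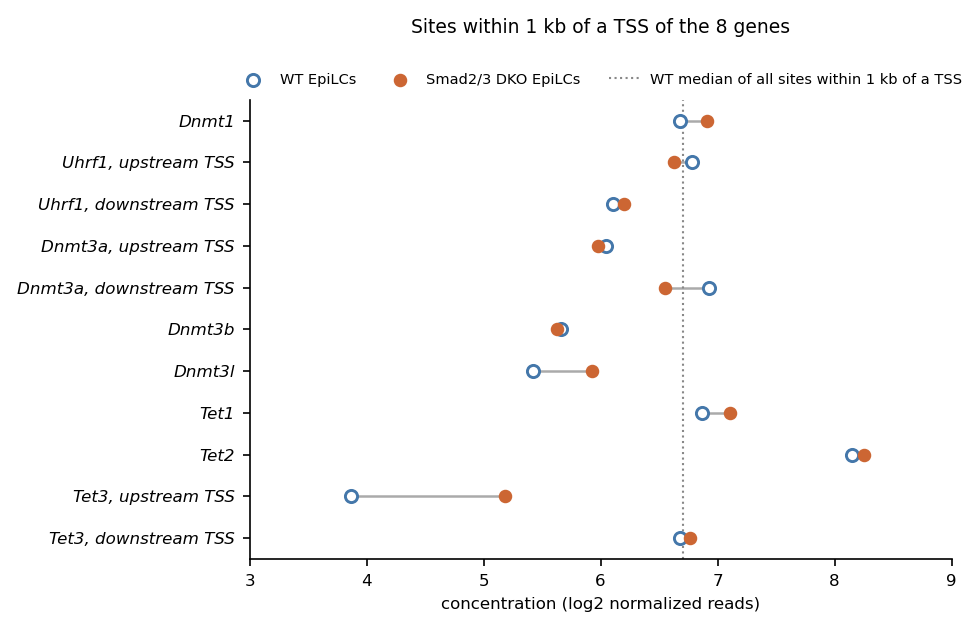
Concentration (log2 normalized reads) of the 11 sites within 1 kb of a TSS of the 8 genes, in WT (open circles) and Smad2/3 DKO EpiLCs (filled circles), each the authors' mean. The upstream Tet3 TSS moves from 3.87 to 5.18, while every other promoter differs by 0.51 or less in either direction, and the dotted line is the WT median over all promoter sites, 6.70.

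Dnmt1, the maintenance methyltransferase, had 6 sites on chromosome 9, and none passed 1.5-fold. Its promoter site (chr9:20952550-20953310, 49 bp inside the gene, in the 5′ UTR exon) was at 6.68 in WT and 6.91 in DKO, a difference of 0.23. The most open site lay in intron 1, 8533 bp downstream of the nearest TSS, at 6.87 and 6.99. The promoter of the neighbouring S1pr2, 16927 bp upstream of Dnmt1, was at 5.47 and 5.84, and a further site 19372 bp upstream was at 4.67 and 5.25, which with 0.58 fell just short of the 1.5-fold line. Of the 6 sites 5 were above 0, with a median of 0.21, and the other sites within 1 Mb had a median of 0.20, so the Dnmt1 locus differed as much as its surroundings. The summed level over the 6 sites was 393 normalized reads in WT and 452 in DKO. No listed site lay within 1 kb of the most upstream Dnmt1 TSS.

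Uhrf1, which recognises hemimethylated CpGs, had 12 sites on chromosome 17, and none passed 1.5-fold. It lay in the densest stretch of open chromatin of the 8 genes, with 161 other sites within 1 Mb of its promoter. The sites at its 2 TSSs were at 6.78 and 6.63 (chr17:56303020-56303600, 27 bp upstream) and at 6.11 and 6.20 (chr17:56303890-56304510, 113 bp upstream) in WT and DKO. The most open of all 72 sites was here, 21767 bp downstream of the nearest Uhrf1 TSS, at 9.39 and 9.38, and it is the promoter of Kdm4b, a histone demethylase gene. The differences ran from -0.41, in intron 1 of Kdm4b, to 0.49, in intron 1 of Plin3, with a median of -0.01. The summed level was 1638 normalized reads in WT and 1613 in DKO. For 10 of the 12 sites the nearest TSS was that of another gene.

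Dnmt3a, a de novo methyltransferase, had 16 sites on chromosome 12, of which 2 were lower and 1 higher past 1.5-fold. Its upstream TSSs give a protein of 908 residues, and its downstream TSS gives the shorter Dnmt3a2 of 689 residues, the form known to prevail in ESCs. The upstream promoter (chr12:3806170-3806830) was at 6.05 in WT and 5.98 in DKO. The Dnmt3a2 promoter (chr12:3891280-3891920, in intron 6 of the long form) was at 6.93 and 6.55, a difference of -0.38, the lowest of the 11 promoter sites, and 84.6% of like sites had a higher difference. The 3 sites just upstream of it, at 6419, 4169 and 1549 bp from the Dnmt3a2 TSS, went from 5.35 to 4.71, from 5.33 to 5.08 and from 6.20 to 6.03. All 4 sites around this TSS were therefore less open in DKO, by 0.64, 0.25, 0.17 and 0.38, while the other sites within 1 Mb had a median of 0.06. The differences at 4169 and 1549 bp lay within the quartiles of like sites, with 34.6% and 36.8% of like sites lower still. Only the site at 6419 bp passed 1.5-fold, and 11.1% of like sites were lower still. It no longer passed at -0.56 when centred on all sites, -0.53 on sites of like concentration and -0.51 with 8 normalized reads added.

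The central 300 bases of that site are shown because this site differed most among the 4 around the Dnmt3a2 TSS. They lie at chr12:3885176-3885475 of GRCm38 (mm10), plus strand, and capitals mark the Sox string CATTGT, 1 of the motif strings searched.
Dnmt3a, 6419 bp upstream of the Dnmt3a2 TSS: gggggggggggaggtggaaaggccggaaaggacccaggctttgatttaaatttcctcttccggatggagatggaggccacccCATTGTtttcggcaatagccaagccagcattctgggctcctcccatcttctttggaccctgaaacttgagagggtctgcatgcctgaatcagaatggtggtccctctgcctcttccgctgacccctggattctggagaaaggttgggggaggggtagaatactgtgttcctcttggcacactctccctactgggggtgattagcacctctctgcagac
The 500 bp around the midpoint also held the Otx2 string GGATTA, and 7 CpGs.

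The other sites of Dnmt3a differed in both directions. An intergenic site 11190 bp upstream of the gene was at 3.94 in WT and 2.94 in DKO, a difference of -1.0, with under 16 normalized reads in both genotypes, and 17.2% of like sites were lower still. In intron 1, 18655 bp from the TSS, a site (chr12:3825450-3826180) was at 5.29 and 5.91, a difference of 0.62 that 3.66% of like sites exceeded. This site and the one of -0.64 were the sites nearest to the 1.5-fold line from inside, and from outside these were the 0.58 at Dnmt1 and a Dnmt3a site 26405 bp upstream with 0.52 (4.08 and 4.60). The median over the 16 sites was -0.08, and the summed level was 725 and 692 normalized reads.

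Dnmt3b, the other de novo enzyme, had 10 sites on chromosome 2, and its promoter hardly differed. The promoter site (chr2:153649060-153649580, 129 bp upstream of the single TSS) had the highest concentrations of the 10, with 5.66 in WT and 5.63 in DKO over a width of 520 bp. The nearest sites on either side, 6194 bp upstream and 2386 bp downstream in intron 2, were at 5.38 and 5.26 and at 4.81 and 4.75. One site passed 1.5-fold, an intergenic one 37454 bp upstream and nearer to the Commd7 TSS (chr2:153611910-153612080), at 2.91 in WT and 4.42 in DKO. Its difference of 1.51 was the largest of the 72, and 1.42% of like sites were higher still. The median over the 10 sites was -0.04 and the summed level was 294 and 296 normalized reads.

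The whole of this site is shown because it had the largest difference. It is on the plus strand, with the Tead string GGAATG or its reverse complement in capitals, at 2 places.
Dnmt3b, 37454 bp upstream: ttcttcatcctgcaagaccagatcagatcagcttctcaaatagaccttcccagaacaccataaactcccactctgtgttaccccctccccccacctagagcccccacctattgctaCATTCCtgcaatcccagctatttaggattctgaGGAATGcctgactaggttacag
It held no CpG.

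Dnmt3l, the cofactor of the de novo enzymes, had the highest median difference of the 8 genes. Of its 9 sites on chromosome 10, 6 were more open, 2 of them past 1.5-fold, and 1 was less open past 1.5-fold. The median was 0.42 and the summed level was 404 in WT and 499 in DKO. The largest difference was in a pair of sites at 1 of its 4 TSSs. The promoter site (chr10:78049410-78050110, 82 bp upstream) was at 5.42 and 5.93, a difference of 0.51 that 6.17% of like sites exceeded. A site 1402 bp upstream of the same TSS (chr10:78048180-78048700), in intron 2 of the longest transcript, was at 4.41 and 5.85, which is 21.3 and 57.7 normalized reads. This difference of 1.44, or 2.71-fold, was exceeded by only 0.158% of like sites, the lowest share of any of the 72 sites, and the other sites within 1 Mb had a median of -0.06.

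Both sequences are given, since this stretch held the change furthest from like sites. They are on the plus strand of GRCm38, at chr10:78048291-78048590 with the Sox string (here as its reverse complement) in capitals, and at chr10:78049542-78049841, the 300 bases before the TSS, with CpGs in capitals.
Dnmt3l, 1402 bp upstream: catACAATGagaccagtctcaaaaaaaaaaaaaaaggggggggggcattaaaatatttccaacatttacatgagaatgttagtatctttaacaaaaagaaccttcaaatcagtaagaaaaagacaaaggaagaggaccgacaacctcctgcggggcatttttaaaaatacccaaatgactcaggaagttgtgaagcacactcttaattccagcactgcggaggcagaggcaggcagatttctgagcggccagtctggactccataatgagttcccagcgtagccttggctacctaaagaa
Dnmt3l, promoter: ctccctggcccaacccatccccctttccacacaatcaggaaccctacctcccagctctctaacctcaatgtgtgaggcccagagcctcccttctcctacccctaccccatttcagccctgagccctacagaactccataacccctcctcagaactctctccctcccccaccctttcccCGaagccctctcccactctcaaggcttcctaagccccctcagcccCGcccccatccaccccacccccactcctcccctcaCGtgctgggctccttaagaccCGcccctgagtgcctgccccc
RefSeq sets 48.0% of the first site in lower case as repeat, beside a median of 11.3% over all sites. The promoter is poor in CpG, with 10 in 500 bp, beside a median of 40 over the 11 promoter sites and 38 over all promoter sites.

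The remaining Dnmt3l sites belonged in part to its neighbours. The promoters of Aire, Icosl and Pfkl lay in the window, at 4.55 and 4.53, at 6.27 and 6.74, and at 7.25 and 7.13 in WT and DKO. The Icosl promoter, 14055 bp downstream of the nearest Dnmt3l TSS, thus differed by 0.47, and sites 12185 bp and 41550 bp downstream by 0.35 and 0.42. A site 25332 bp upstream was at 3.40 and 4.08, with 10.8% of like sites higher still. The site with the lowest concentrations, 45955 bp downstream, was at 3.26 and 2.49, with 36.8% of like sites lower still. With only the 2 sites whose nearest TSS was that of Dnmt3l, the log2 ratio of the summed levels was 0.89 in place of 0.30.

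**Figure D3:**
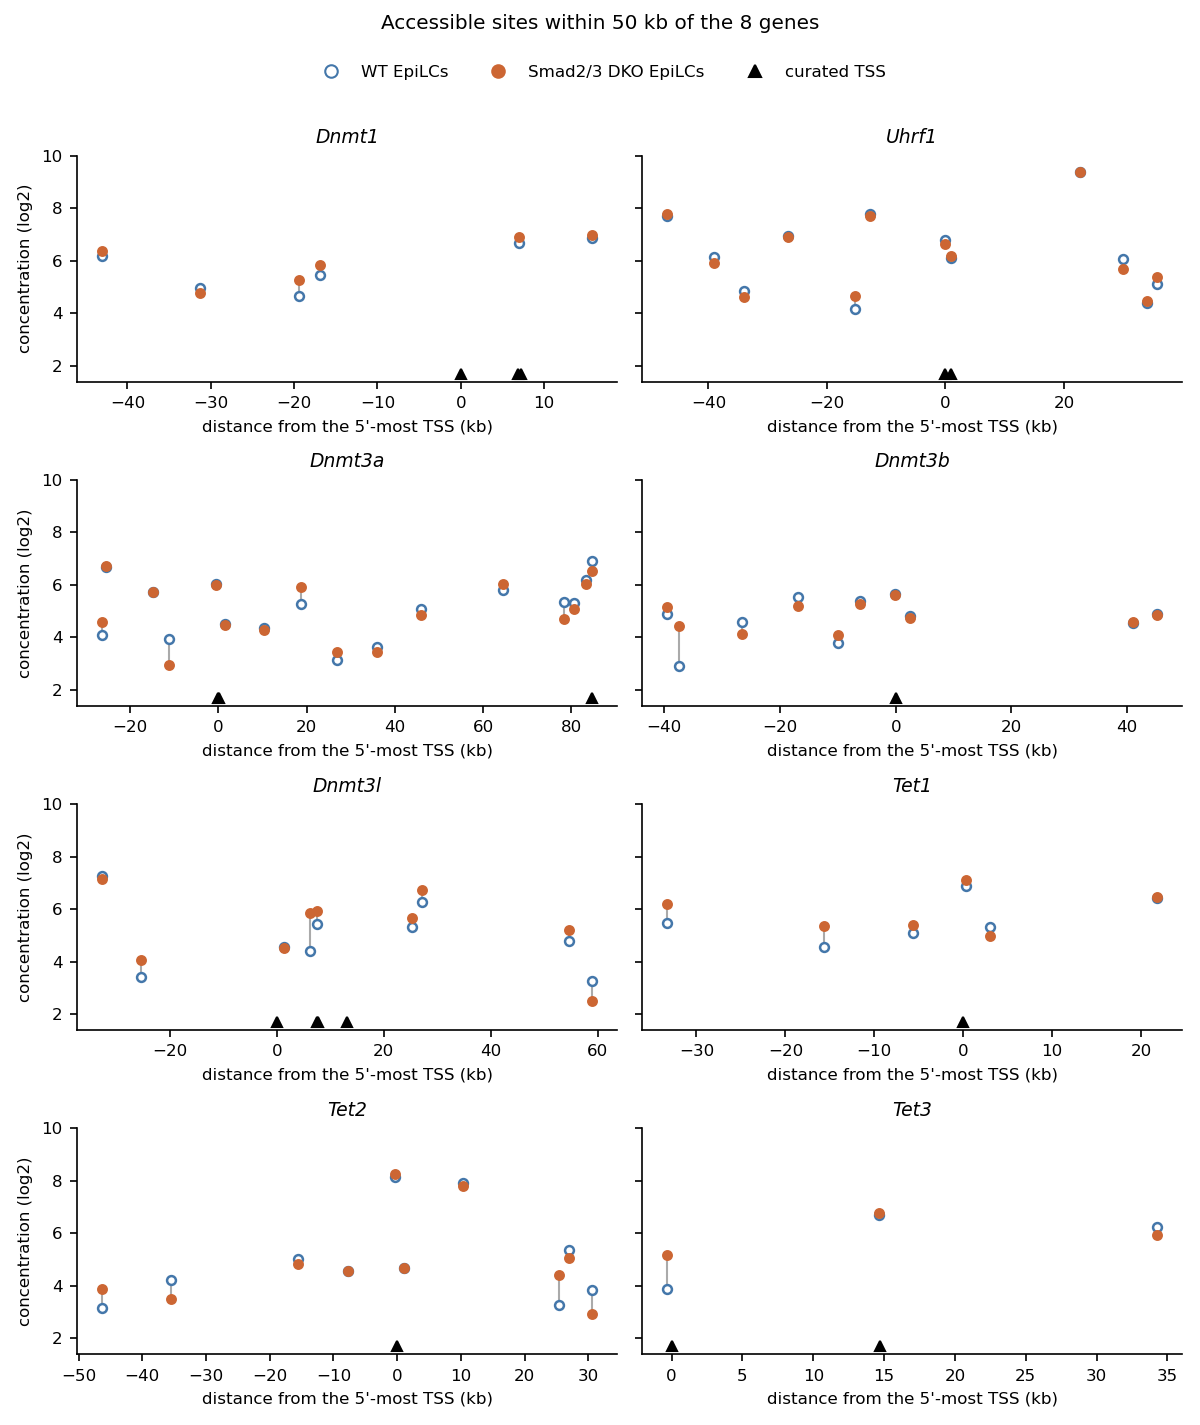
Concentration (log2 normalized reads, the authors' means) of every site of the 8 genes against its distance in kb from the most upstream curated TSS, read along the gene, in WT (open circles) and Smad2/3 DKO EpiLCs (filled circles), with triangles at curated TSSs. The pair of Dnmt3l sites beside its middle TSSs is more open in DKO. The 4 sites around the downstream Dnmt3a TSS are less open, with differences of -0.64 to -0.17, and Uhrf1 sites differ by -0.41 to 0.49.

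Tet1, the Tet enzyme known to be abundant in ESCs, had 6 sites on chromosome 10, of which 5 were more open in DKO and 2 passed 1.5-fold. Its median difference was 0.27 and its summed level was 346 in WT and 415 in DKO, while the other sites within 1 Mb had a median of -0.08. The promoter site (chr10:62886390-62887630) was at 6.87 and 7.11. An intergenic site 15636 bp upstream (chr10:62902810-62903110) was at 4.56 and 5.35, a difference of 0.79 that 2.79% of like sites exceeded. The promoter of Slc25a16, a mitochondrial carrier gene 33331 bp away, was at 5.49 and 6.21, a difference of 0.72 that 1.5% of like sites exceeded. The single site with a lower value, 2974 bp downstream in intron 1, was at 5.33 and 4.96.

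The intergenic site is shown because it held an octamer, a Tead and a Sox string together, the most kinds at any of the sites past 1.5-fold. It is read on the minus strand, the strand of Tet1, from chr10:62902811-62903110, with these strings in capitals.
Tet1, 15636 bp upstream: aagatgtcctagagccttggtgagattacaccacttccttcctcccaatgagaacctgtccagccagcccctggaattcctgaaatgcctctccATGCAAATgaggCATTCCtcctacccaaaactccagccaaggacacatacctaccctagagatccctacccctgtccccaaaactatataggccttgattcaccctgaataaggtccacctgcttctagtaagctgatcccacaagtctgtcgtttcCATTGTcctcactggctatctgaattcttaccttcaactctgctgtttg
It held 1 CpG.

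Tet2, which lacks the CpG-binding CXXC domain of its relatives, had 10 sites on chromosome 3 and differed in both directions, with 2 sites lower and 2 higher. The promoter (chr3:133544030-133545410) was at 8.15 in WT and 8.25 in DKO, the highest concentrations of the locus, over a width of 1380 bp. A second strong site, 10280 bp downstream in intron 1, was at 7.93 and 7.82. The 4 sites past 1.5-fold reached at most 4.41 in either genotype. In intron 1, 25360 bp from the TSS, a site was at 3.26 and 4.41, a difference of 1.15 that 2.71% of like sites exceeded. In intron 2, 30635 bp from the TSS, a site was at 3.83 and 2.94, a difference of -0.89 with 21.4% of like sites lower still. Upstream, at 35540 and 46345 bp, sites were at 4.22 and 3.48 and at 3.15 and 3.88, with 18.2% of like sites lower and 12.5% higher still. The median over the 10 sites was -0.04, where the other sites within 1 Mb of the promoter had -0.22, and the summed level was 702 and 697 normalized reads.

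The intron 2 site is shown for its pair of octamer strings, here as the reverse complement of ATGCAAAT, with 1 Tead string, all in capitals, on the minus strand from chr3:133513630-133513880.
Tet2, 30635 bp downstream: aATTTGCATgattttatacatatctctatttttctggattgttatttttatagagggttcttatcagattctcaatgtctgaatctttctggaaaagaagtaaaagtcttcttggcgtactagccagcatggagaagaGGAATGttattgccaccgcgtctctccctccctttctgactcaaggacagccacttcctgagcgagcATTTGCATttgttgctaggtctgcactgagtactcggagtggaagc

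Tet3, known for the oxidation of the paternal genome in the zygote, had 3 sites on chromosome 6, and its 2 promoters differed. The downstream TSS, whose transcript encodes 1668 residues, had a site (chr6:83441460-83441980) at 6.68 in WT and 6.76 in DKO, which also lies 35 bp from the TSS of the noncoding gene B230319C09Rik. The upstream TSS, whose transcript encodes 1803 residues, had a site 338 bp upstream (chr6:83456470-83456990) at 3.87 and 5.18, which is 14.6 and 36.3 normalized reads. This difference of 1.31, or 2.48-fold, was exceeded by 0.633% of like sites, and the other sites within 1 Mb had a median of -0.06. The third site, 19583 bp downstream in intron 3, was at 6.23 and 5.94. The summed level of the 3 sites was 192 and 206 normalized reads.

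Upstream stretches of both promoters are printed on the minus strand, the strand of Tet3, with CpGs in capitals, to show that the one that differed is dense in CpG. They come from chr6:83456470-83456725 and chr6:83441679-83441978 of GRCm38.
Tet3, upstream TSS: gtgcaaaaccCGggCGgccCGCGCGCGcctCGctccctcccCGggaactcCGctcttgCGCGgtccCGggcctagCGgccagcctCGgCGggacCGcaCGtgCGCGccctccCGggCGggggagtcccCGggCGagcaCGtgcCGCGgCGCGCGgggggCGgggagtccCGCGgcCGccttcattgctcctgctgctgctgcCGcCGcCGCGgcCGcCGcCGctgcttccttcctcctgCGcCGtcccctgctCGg
Tet3, downstream TSS: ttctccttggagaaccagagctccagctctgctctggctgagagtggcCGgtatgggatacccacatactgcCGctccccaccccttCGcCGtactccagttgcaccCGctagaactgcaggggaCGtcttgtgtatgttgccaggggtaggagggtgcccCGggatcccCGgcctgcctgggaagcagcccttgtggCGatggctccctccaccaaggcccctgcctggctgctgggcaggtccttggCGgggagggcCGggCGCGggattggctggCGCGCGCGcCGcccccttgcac
The first holds 43 CpGs in 256 bases and the second 18 in 300 bases. Over 500 bp the upstream promoter had 66 CpGs and 78.6% GC, and none of the motif strings was found in it.

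**Figure D4:**
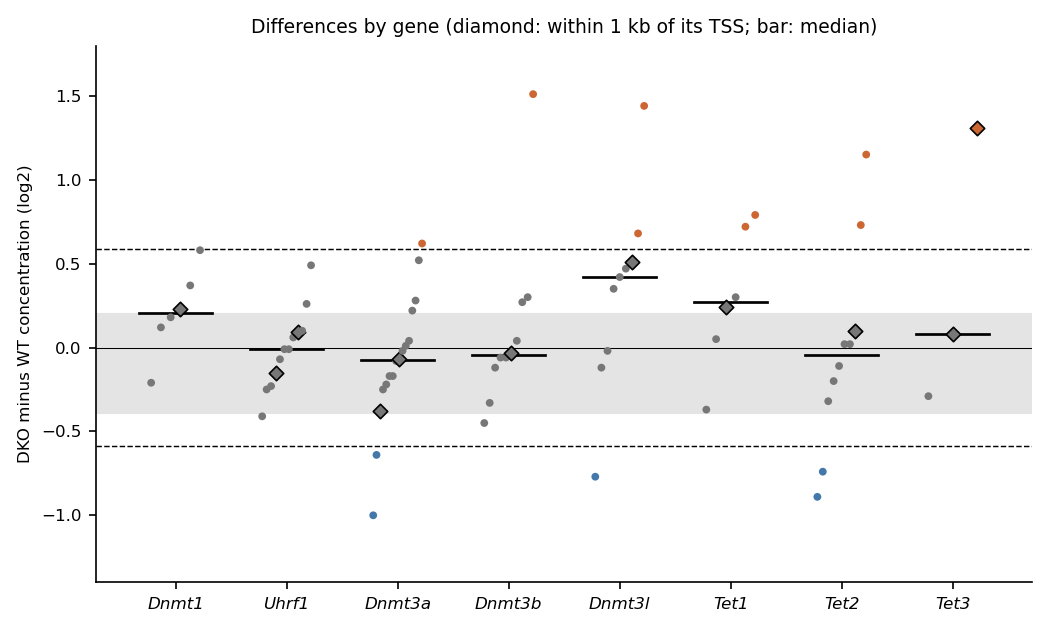
Difference (DKO minus WT concentration, log2) of each site by gene, with diamonds for sites within 1 kb of the gene's own TSS, bars for the median per gene, the quartiles of all listed sites in grey and 1.5-fold as dashed lines. Dnmt3l, with 0.42, Tet1, with 0.27, and Dnmt1, with 0.21, have the highest medians, and Dnmt1 and Uhrf1 have no site past 1.5-fold.

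By position, the 5 lower sites and 8 of the 9 higher sites lay over 1 kb from a TSS of their gene, as did 61 of the 72 sites. Over all listed sites, too, 11484 of the 12109 lower and 5904 of the 6457 higher sites lay over 1 kb from a TSS, which is 18.9% and 9.70% of the sites there, against 8.20% and 13.1% of the 61. Of all sites over 1 kb from any TSS but within 50 kb of one, 16.7% were lower and 9.92% higher. No all-site share was worked out for the classes that follow, so their counts only describe the 72 sites. Of the 35 sites over 1 kb upstream, 3 were lower and 6 higher, and of the 26 over 1 kb downstream, 2 were lower and 2 higher. Introns held 33 of the 72 sites, with 2 lower and 3 higher, and intergenic sequence held 31, with 3 lower and 5 higher. The 6 sites in UTR exons and 2 in coding exons included 1 higher site, the Slc25a16 promoter. For 41 sites the nearest TSS was the gene's own, with 4 lower and 6 higher, and for 31 it was that of another gene, with 1 lower and 3 higher.

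Motif strings were searched on both strands in 500 bp around each midpoint. The octamer ATGCAAAT, bound by Oct4, was at 3 of the 72 sites (4.17%, against 4.38% of all sites), the FoxH1 string TGTGGATT at 1 (1.39%, against 1.85%), the Otx2 string GGATTA at 8 (11.1%, against 14.4%), the Tead string GGAATG at 17 (23.6%, against 26.7%) and the Sox string CATTGT at 7 (9.72%, against 20.7%). FoxH1 and Otx2 strings can overlap by 5 bases. The Smad palindrome GTCTAGAC and the Fox string TGTTTAC were at none of the 72, and at 0.395% and 7.08% of all sites, and the Esrrb string TCAAGGTCA was at 1, the Dnmt3a site 1549 bp upstream of the Dnmt3a2 TSS. Of the 9 higher sites, 4 held a Tead, 3 a Sox and 1 an octamer string, and of the 5 lower sites, 2 held a Tead and 1 each an octamer, an Otx2 and a Sox string. The higher sites had a median of 5 CpGs in 500 bp, the lower sites 7 and the sites not past 1.5-fold 10, beside 8 over all sites.

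The rest of the pathway was taken from a list of 34 genes, of which 33 had a curated TSS with sites nearby. Their 195 sites had a median difference of 0.00, and 20 (10.3%) were lower and 21 (10.8%) higher past 1.5-fold, against the background of 16.0% and 8.51%. Promoters differed little here too. Of 28 genes with a site within 1 kb of a TSS, only Gadd45g, a stress-induced gene linked to demethylation, passed at its nearest promoter site, from 4.81 in WT to 5.42 in DKO. The lowest difference at a nearest promoter site was that of Mbd2, a methyl-CpG binding protein, with -0.34. A weaker promoter site of Idh1, 853 bp from the TSS and not its nearest, had -0.52 (3.29 in WT and 2.77 in DKO). Among sites with a concentration of at least 4 in the higher genotype, the largest differences were distal. The highest difference of all 195 sites was at a weaker site, 14451 bp upstream of Smug1, which went from 1.09 to 3.53. A site 20434 bp downstream of the Gadd45b TSS went from 4.60 to 2.01, a site 43315 bp downstream of that of Cxxc4, a CXXC protein that binds unmethylated CpG, from 4.44 to 2.72, and a site 24139 bp downstream of that of Zfp57, which protects imprints, from 4.60 to 3.10. Near Mbd4, a glycosylase that binds methyl-CpG, a site 29331 bp downstream of the TSS went from 6.37 to 4.93, and near Cxxc5 a site 1616 bp from the TSS went from 4.88 to 3.82. In the other direction, sites near Usp7 (3.91 to 5.27), a deubiquitinase that stabilises Dnmt1 and Uhrf1, Ehmt2 (4.00 to 5.32), an H3K9 methyltransferase, Hells (4.00 to 5.32), a remodeller needed for methylation, Zbtb38 (4.18 to 5.44), a methyl-CpG binding zinc finger protein, and Trim28 (4.23 to 5.44), the corepressor that Zfp57 recruits, were more open in DKO. The Ehmt2 site is the promoter of Zbtb12, and the sites named for Cxxc4, Zfp57, Mbd4, Hells and Trim28 lay nearer to the TSS of another gene. The Gadd45b site lay in a UTR exon of Gng7 and had 4.03 normalized reads in DKO.

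The counts by role are small and are given beside the same shares over all sites, 16.0% lower and 8.51% higher, and a site near genes of different roles counts for each, as do the Dppa3 sites that are also Apobec1 sites and the higher site shared by Cxxc1 and Mbd1. The 3 CXXC genes had 6 lower and 2 higher among 25 sites, with a median of -0.20. Of these 6, 3 were near Cxxc4, where the other sites within 1 Mb had medians of -0.29 to -0.30, and 3 near Cxxc5, where they had medians of 0.00 to 0.01. The 5 genes for heterochromatin and imprint protection had 1 lower and 5 higher among 44 sites, with a median of 0.15. Of these, 16 sites, with 3 of the higher ones, were near Trim28, where the other sites within 1 Mb had medians of 0.13 to 0.19. The 4 partners of maintenance methylation, Uhrf2, Hells, Usp7 and Pcna, had 3 lower and 3 higher among 26 sites, and the 7 methyl-CpG readers had 4 and 4 among 40. The 7 genes of excision and demethylation had 4 lower and 6 higher among 44 sites, the 4 regulators Dppa3, Prdm14, Kdm1a and Kdm1b had 1 and 2 among 16, and Idh1, Idh2 and Ogt, which govern Tet cofactors and partners, had 2 and 1 among 11.

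**Figure D5:**
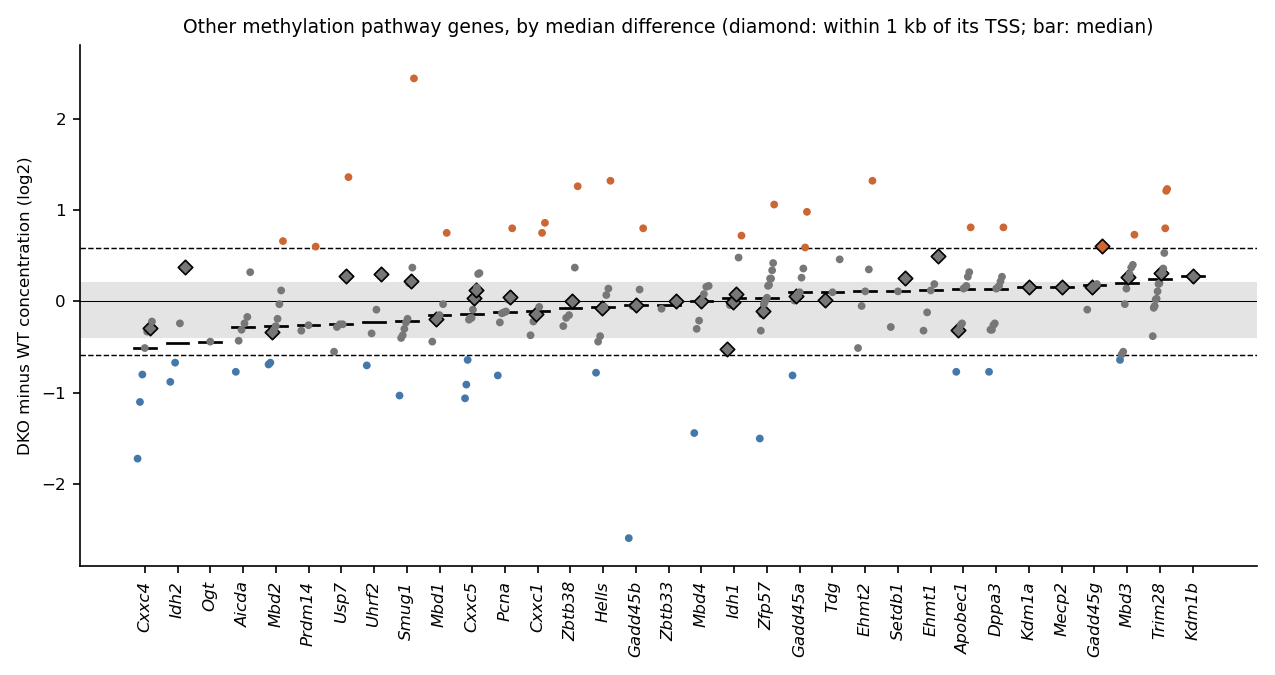
Difference (DKO minus WT concentration, log2) of each site of the 33 other methylation pathway genes, ordered by their median (bars), with diamonds for sites within 1 kb of the gene's TSS, all-site quartiles in grey and 1.5-fold as dashed lines. Gadd45g is the single gene with a diamond past the upper line, and the lowest point is the Gadd45b site at -2.59.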

How the data were processed

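ATAC-seq reads were aligned by the authors to mm10 with bowtie2, without mixed or discordant alignments. Reads that were not unique or fell in blacklisted regions were left out, as were PCR duplicates (Samtools). DANPOS2 called the sites on triplicates with the Tn5 control of genomic DNA, and DiffBind compared the genotypes. Versions, DiffBind's scaling between libraries and any shift of read ends to the Tn5 cut are not given in the sources used here. The deposited table holds, per genotype, log2 concentrations (log2 of the mean normalized reads of 3 libraries), which were used as the authors deposited them. The concentration over both genotypes and the 3 columns of the authors' own comparison (fold, p-value, FDR) were not used. With 1 pooled value per genotype, depth per library, error and tests could not be had.

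Sites were placed on GRCm38.p6, the same build as mm10, with the RefSeq annotation given for it (45756 curated transcripts, 31601 TSSs). Listed coordinates are multiples of 10 and were read as 1-based. Distances run from the site's midpoint to the nearest curated TSS of the gene, and promoter sites lie within 1 kb. Named sites were, for each of the 8 genes, the promoter site, the site with the highest WT concentration and every site past 1.5-fold, and for the other pathway genes the 5 genes with the largest differences in each direction among sites with a concentration of at least 4, plus the extreme promoters. Other sites of the 8 genes were named to describe the loci. Dnmt3c was not matched by symbol. The members and lists were chosen with earlier results of these data known, and the role groups and per-length levels were added after values were seen. Repeats are the lower-case letters of the RefSeq genome. Alternatives were other folds, a minimum concentration, 3 centrings, a pseudocount, other windows and TSS sets, and each gene left out. The code was tested on simulated data. Python 3.11.15, numpy 2.4.6, pandas 2.3.3 and matplotlib 3.10.9 were used.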

Additional observations from a re-analysis of the deposited data

How the results depend on the processing

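No paired analysis was possible because the deposited table holds 1 pooled mean per genotype, and for the same reason no replicate could be left out and the error of each value is unknown. The median difference over the 72 sites stayed between 0.00 and 0.10 under all alternatives run, and that over the other pathway genes between -0.03 and 0.08. All 14 sites past 1.5-fold kept their direction under the 3 centrings and the pseudocount, which was fixed by construction. The pseudocount cannot change the sign of a difference, and each centring moved these sites by less than 0.585. Of the 14, 13, 12 and 12 stayed past 1.5-fold when centred on all sites, on like concentration and on sites within 1 Mb. With 8 normalized reads added, 6 stayed past 1.5-fold, all higher.

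Of the 8 genes, the count of lower sites, 5 as reported, was 3 when centred on like concentration, 0 with the pseudocount, 10 at a log2 difference of 0.32, 0 at 2-fold, 2 at a concentration of at least 4, 1 within 10 kb, and 3 without Dnmt3a as without Tet2. The count of higher sites, 9 as reported, was 17 at 0.32, 4 at 2-fold, 2 within 10 kb and 15 within 100 kb. No all-site share was worked out at these folds and windows, here or for the other pathway genes below. Of the other pathway genes, lower and higher sites, 20 and 21 as reported, were 10 and 10 with the pseudocount, 38 and 35 at 0.32, 7 and 8 at 2-fold, 4 and 3 within 10 kb, 39 and 35 within 100 kb, and 7 and 7 where the own TSS was the nearest. By construction, the fold moves the line, and the window, the minimum concentration, a gene left out and the own-TSS rule change which sites are counted. The 8 added reads shrink differences, most at low concentrations, also by construction. Centring on all sites (median -0.08) or on sites of like concentration (bin medians of -0.19 to -0.01) raises every difference, again by construction. Centring on sites within 1 Mb moves a site up or down according to the sign of its local median. Why the all-site and bin medians lie below 0 was not tested. The medians of Dnmt3a, Dnmt3b, Uhrf1, Tet2 and Tet3, all near 0, changed sign in at least 1 alternative, and those of Dnmt3l (0.30 to 0.97) and Tet1 (0.24 to 0.35) did not. The Dnmt1 median ran from 0.00, centred on sites within 1 Mb, to 0.29. Within 10 kb the Tet3 median was 0.70, and the largest Dnmt3b difference was 0.92 with the pseudocount.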
